A study of Homo sapiens with 4 samples.

Results

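STC1 and STC2 are the human stanniocalcins, a pair of secreted glycoprotein hormones that were followed here through RNA immunoprecipitation and sequencing of PANC-1 cells, an established line of human pancreatic ductal adenocarcinoma. The members were the 2 genes with these symbols among the 24483 genes of the expression table, and the 5 of 48104 peaks of the lactate list and 5 of 95785 peaks of the vehicle list that the authors assigned to them. There were 4 libraries from wild-type PANC-1 cells in 10% serum: a lactate IP and a lactate input from cells given 30 mM sodium lactate for 24 h, and a vehicle IP and a vehicle input from cells given water for the same time. The IP used an antibody to NSUN2, an RNA methyltransferase that makes 5-methylcytosine (m5C), for 4 h on beads, and the input was taken before it. Each group held 1 library, so no value has a replicate error, no test between groups was made, and intervals cover counting error only. A control antibody was not part of the libraries used here, so an enrichment in the IP does not by itself show binding by NSUN2. In such bulk RNA, fewer cells that make a message and less of it per cell cannot be told apart.

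Stanniocalcins were first known from fish, where they restrain calcium uptake. In mammals they act close to the cells that secrete them, and both inhibit the pappalysins PAPP-A and PAPP-A2, proteinases that cut IGF-binding proteins and so release insulin-like growth factors. Both genes are known to respond to low oxygen, and STC2 also to stress of the endoplasmic reticulum through ATF4. STC1 is one of the messages that the study is known to have followed as a target of NSUN2 after lactate.

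The libraries held 11175432 to 17626197 reads, recovered from the steps in the deposited FPKM values (a gene's fragments divided by its length in kilobases and by the library's fragments, times 1000000). Reads from genes outside the mitochondrial genome, here called nuclear reads, made up 13.9% of the lactate IP, 20.9% of the lactate input, 30.3% of the vehicle IP and 31.3% of the vehicle input. The mitochondrial ribosomal RNA MT-RNR2 alone took 83.7%, 55.1%, 68.0% and 41.0% of the same libraries in that order. FPKM sets a gene against all reads, so levels are also given per 1000000 nuclear reads. Of 12 markers listed for an epithelial and ductal adenocarcinoma line, 11 were in the table. In each library 7 reached FPKM 1, though not the same 7. KRT18, S100A6 and VIM, a mesenchymal marker that the list also held, did so in every library. MUC1 did so in the IP libraries alone and EPCAM in the inputs alone. CDH1 stayed between 0.0736 and 0.121, and KRT7 between 0.0671 and 0.808. Of 21 markers of fibroblasts, endothelium, leukocytes, neurons and Schwann cells, 13 were in the table, and COL1A1, COL3A1 and SYT1, a calcium sensor of secretory vesicles, were the ones to reach FPKM 1 in any library. SYT1 had FPKM 6.18 in the lactate IP, 9.54 in the lactate input, 14.6 in the vehicle IP and 12.3 in the vehicle input.

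STC1 was a low message and STC2 a well expressed one. STC1 (ENSG00000159167) had FPKM 1.56 in the lactate IP, 1.15 in the lactate input, 0.941 in the vehicle IP and 1.37 in the vehicle input, on 98, 53, 53 and 100 reads. Its highest library was thus the lactate IP and its lowest the vehicle IP, with the inputs between them. STC2 (ENSG00000113739) had FPKM 9.90 in the lactate IP, 14.5 in the lactate input, 21.5 in the vehicle IP and 20.7 in the vehicle input, on 761, 823, 1481 and 1847 reads. Here the lactate IP was the lowest library, and the vehicle IP and vehicle input had overlapping 95% Poisson intervals of 20.4 to 22.6 and 19.8 to 21.7. For STC1 these intervals ran from 1.27 to 1.90 in the lactate IP, 0.859 to 1.501 in the lactate input, 0.705 to 1.23 in the vehicle IP and 1.12 to 1.67 in the vehicle input, so that the lactate IP stood clear of the vehicle IP alone. Of 7413 protein-coding genes with FPKM of at least 1 in some library, STC2 lay above 92.5% to 93.3% in every library. STC1 lay above 53.2% in the lactate IP, 42.0% in the lactate input, 9.31% in the vehicle IP and 35.7% in the vehicle input. The vehicle IP had the most genes of any kind at FPKM 1, 8102 against 5405 to 6529 in the other libraries. STC1 was under FPKM 1 in the vehicle IP alone, so its rank there depends on the filter.

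Per 1000000 nuclear reads, STC2 was nearly level across the libraries, at 360.3 in the lactate IP, 352 in the lactate input, 359 in the vehicle IP and 335 in the vehicle input. STC1 on that scale had 46.4 in the lactate IP, 22.7 in the lactate input, 12.8 in the vehicle IP and 18.1 in the vehicle input. The lower FPKM of STC2 in the lactate libraries was therefore matched by the smaller nuclear share of those libraries, and the higher FPKM of STC1 in the lactate IP became a wider gap. The ratio of STC2 to STC1 does not depend on how libraries are scaled. By FPKM, which is per length, STC2 was 6.34 times STC1 in the lactate IP (95% interval 5.13 to 7.91), 12.7 times in the lactate input (9.60 to 17.1), 22.8 times in the vehicle IP (17.4 to 30.6) and 15.1 times in the vehicle input (12.3 to 18.6). The interval of the lactate IP overlapped none of the other 3, and the intervals of the inputs overlapped each other.

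**Figure D1:**
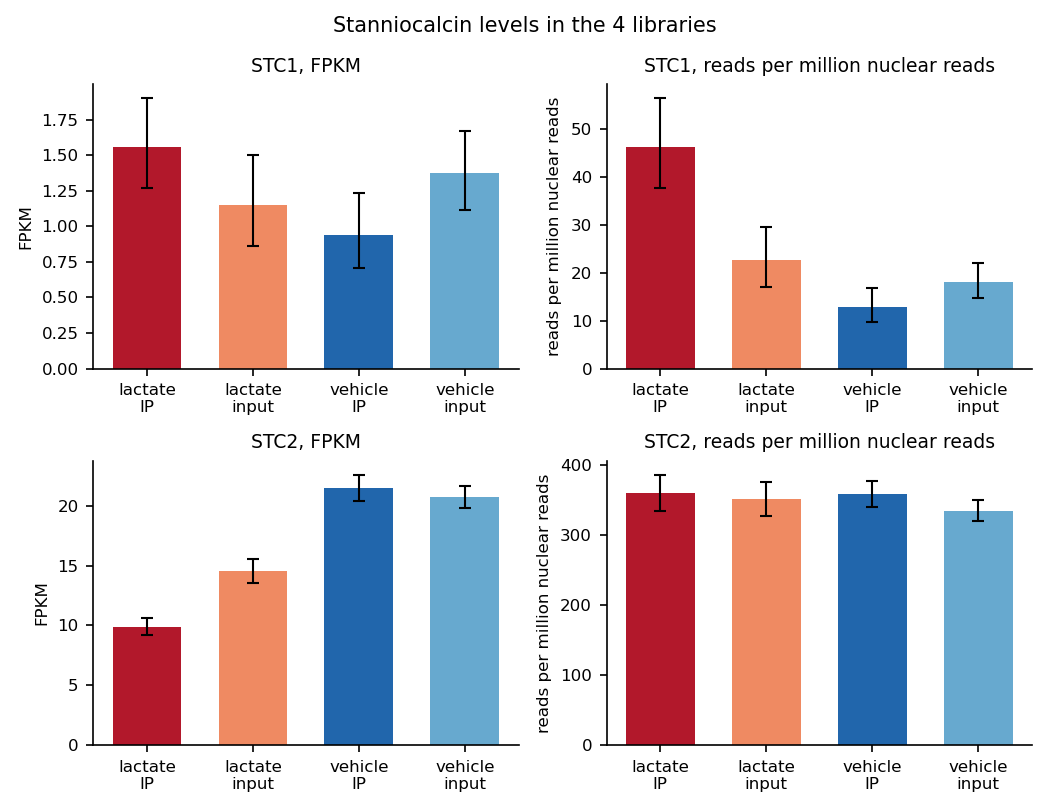
Levels of STC1 (top) and STC2 (bottom) in the lactate IP, lactate input, vehicle IP and vehicle input, as FPKM (left) and as reads per 1000000 nuclear reads (right); bars are single libraries and error bars are 95% Poisson intervals of the reads, which cover counting error only. STC1 is highest in the lactate IP on both scales, while STC2 is lowest there by FPKM (9.90) and close to level per 1000000 nuclear reads (335 to 360.3).

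The inputs compare the message in cells with and without lactate. STC1 had FPKM 1.15 in the lactate input and 1.37 in the vehicle input, a log2 ratio of −0.14 with 1 added to each FPKM, and −0.26 without (95% exact interval −0.77 to 0.24). STC2 had FPKM 14.5 in the lactate input and 20.7 in the vehicle input, with log2 ratios of −0.48 and −0.51 (−0.63 to −0.39). Neither reached 2-fold, against 1.76% of the 6766 genes tested that were higher and 6.46% that were lower (8.22% in either direction). The median gene of this comparison stood at −0.43, so that STC2 was 0.05 below it and STC1 was 0.29 above it. Libraries were also scaled to equal nuclear totals, meaning equal summed FPKM of genes outside the mitochondrial genome. This differs from a scale of nuclear reads, because FPKM divides by gene length. With equal nuclear totals the ratios without an added constant were 0.42 for STC1 (−0.09 to 0.91) and 0.17 for STC2 (0.05 to 0.29). Neither member kept its direction in the inputs under both the deposited scaling and equal nuclear totals.

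The IP against its own input compares the share of each message in the IP library with its share in the input. In lactate cells STC1 had FPKM 1.56 in the IP and 1.15 in the input, a log2 enrichment of 0.25, or 0.44 without the added constant (−0.05 to 0.95). In vehicle cells it had 0.941 in the IP and 1.37 in the input, giving −0.29, or −0.54 (−1.05 to −0.05). STC1 was thus on the enriched side in lactate cells and on the depleted side in vehicle cells, though the first interval reaches past 0. STC2 had FPKM 9.90 in the lactate IP and 14.5 in the lactate input (−0.51, or −0.56 with an interval of −0.70 to −0.41), and 21.5 in the vehicle IP and 20.7 in the vehicle input (0.05, with an interval of −0.05 to 0.15). By FPKM + 1, neither member passed 2-fold in either kind of cell. Over all genes 39.3% of 7170 did so in lactate cells (16% higher, 23.3% lower) and 42.9% of 9099 in vehicle cells (27.6% higher, 15.3% lower). The whole message of STC1 or STC2 was therefore not among those most enriched by the antibody. CDCP1, a transmembrane protein that the study followed beside STC1, had log2 enrichments of 1.47 in lactate cells and 2.04 in vehicle cells. The NSUN2 message itself stood at −0.36 and −0.12 as deposited, and at 0.17 and 0.15 with equal nuclear totals. On the scale of nuclear reads used for the levels, NSUN2 was not higher in the IP. There it had 48.3 in the lactate IP and 48.7 in the lactate input, and 55.3 in the vehicle IP and 59.7 in the vehicle input. The direction for NSUN2 thus rests on the scaling.

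Set directly against the vehicle IP, the lactate IP gave the clearest contrast between the stanniocalcins. STC1 had FPKM 1.56 on 98 reads in the lactate IP and 0.941 on 53 reads in the vehicle IP, a log2 ratio of 0.40, or 0.73 without the added constant (0.23 to 1.24). STC2 had FPKM 9.90 on 761 reads in the lactate IP and 21.5 on 1481 reads in the vehicle IP, a log2 ratio of −1.04, or −1.12 (−1.25 to −0.99). STC2 passed 2-fold in the lower direction, as did 27.7% of the 8366 genes tested, while 1.64% were 2-fold higher (29.3% in either direction) and the median gene stood at −0.74. Its position was an ordinary one, with 21.1% of protein-coding genes below it. Among the protein-coding genes 0 were 2-fold higher and 1636 were 2-fold lower. STC1 was 1.14 above the median gene, and 25 of 6701 protein-coding genes, itself included, had a ratio at least as high. STC1 entered this comparison through the lactate IP alone, since its vehicle IP value was under the minimum of FPKM 1. Among the 5905 protein-coding genes with a mean FPKM of at least 1 over the 4 libraries, a filter that does not look at either IP by itself, 20 were at or above STC1. CDCP1 stood at −0.35 and NSUN2 at −0.86 in the same comparison. With equal nuclear totals they stood at 0.74 and −0.12, so the direction for CDCP1 rests on the scaling.

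With equal nuclear totals and no added constant, STC1 was 3.70-fold higher in the lactate IP than in the vehicle IP (log2 1.89, interval 1.39 to 2.40), and STC2 was 1.03-fold (log2 0.04, interval −0.09 to 0.17). With 1 added to FPKM under these totals, STC1 stood at 1.15 and passed 2-fold, as 6.16% of genes did in the higher direction and 3.56% in the lower. STC1 was higher under each scaling tried, and the call for STC2 rests on the deposited scaling. The difference of the enrichments, lactate cells minus vehicle cells, was 0.54 for STC1, or 0.99 without the added constant (0.31 to 1.67). With equal nuclear totals and no added constant it was 1.47 (0.79 to 2.15). For STC2 it was −0.56, or −0.61 (−0.78 to −0.44), and −0.13 with equal nuclear totals (−0.30 to 0.05). By FPKM + 1 as deposited, the median gene stood at −0.36, and 12.6% of 9445 genes passed 2-fold, 3.04% higher and 9.56% lower. Neither stanniocalcin was among them on that scale. STC1 was higher than 97.8% of the 5905 genes with a mean FPKM of at least 1, and STC2 higher than 31.2% of them.

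**Figure D2:**
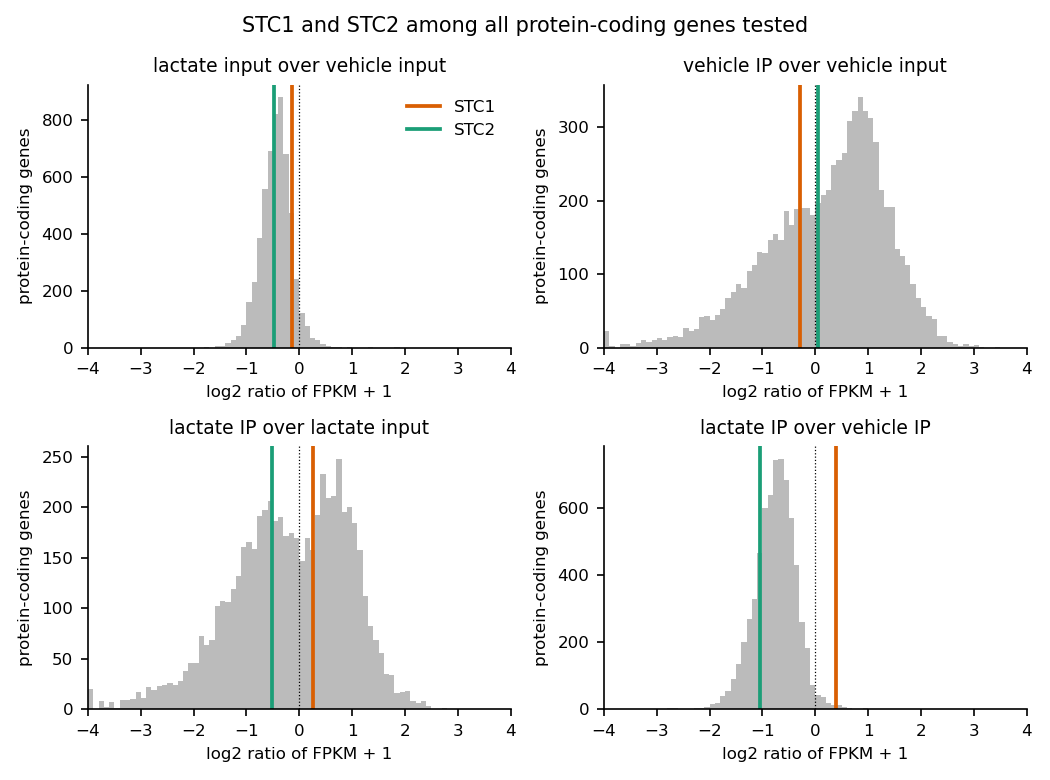
Log2 ratios of FPKM + 1 for all protein-coding genes tested (grey, number of genes in bins of width 0.1, with values past the axis in the end bins) in 4 comparisons, with lines for STC1 and STC2. STC1 sits at 0.40 in the far right tail of lactate IP over vehicle IP, where STC2 is at −1.04 inside the main body, and both lie inside the main body of the other comparisons.

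The peak lists show where along each message reads of the IP stood above the input. Fold enrichments and q-values of peaks are the authors', and each list was called from 1 IP library and its own input. Both genes lie on the minus strand of GRCh38, STC1 at chr8:23841929-23854806 and STC2 at chr5:173314723-173328414 in RefSeq, and 0 other genes of that annotation overlap either span. STC1 had a peak over its 5′ UTR in each list, at chr8:23854573-23854854 in the lactate list (fold 4.25, q 0.00139) and at chr8:23854572-23854804 in the vehicle list (fold 7.46, q 1.51e-10). The summits of these peaks lay 3 bp apart, 122 and 125 bp inside the RefSeq 5′ end. Within its own list the lactate peak had a higher fold than 66.7% of peaks and the vehicle peak a higher fold than 91.5%. The lactate list held another STC1 peak over the 3′ UTR at chr8:23843297-23843532, with a fold of 2.11 and a q of 0.133. That fold was higher than 3.93% of the list, and the vehicle list had no peak there.

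STC2 had 3 peaks in the lactate list and 4 in the vehicle list, and each lactate peak overlapped a vehicle peak. In the 3′ UTR, chr5:173315472-173315706 of the lactate list had a fold of 3.22 (q 1.63e-12) and chr5:173315464-173315756 of the vehicle list a fold of 3.65 (q 2.32e-29). A further 3′ UTR peak at chr5:173314753-173315054, with its summit 185 bp from the RefSeq 3′ end, stood in the vehicle list alone (fold 2.82, q 5.05e-60). Inside the gene, a peak annotated as intronic had a fold of 4.27 in the lactate list (q 4.07e-12) and 5.92 in the vehicle list (q 6.28e-39). The peak at the 5′ end, annotated to an exon, had a fold of 2.39 and a q of 0.979 at chr5:173328264-173328520 in the lactate list. In the vehicle list it had a fold of 10.6 and a q of 1.37e-21 at chr5:173328203-173328570, higher than 96.6% of that list. As background, 27.8% of all vehicle peaks overlapped a lactate peak by at least 1 base and 56.4% of lactate peaks overlapped a vehicle peak, while 48.6% of the vehicle list and 42.7% of the lactate list had a q under 0.05. For the stanniocalcins, 4 of 5 peaks of each list overlapped one of the other list, and 3 of 5 lactate peaks and 5 of 5 vehicle peaks had a q under 0.05.

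The 5′ peak of STC2 reached past the RefSeq start by 106 bp in the lactate list and 156 bp in the vehicle list, into an exon of the Ensembl transcript ENST00000519511. The sequence under its summits is shown because this was the STC2 peak with the highest fold in the vehicle list. Both stretches are from RefSeq promoter sequences of GRCh38.p14, on the minus strand, 30 bases each, 5′ to 3′. The first lies across the RefSeq start, at chr5:173328409-173328438, with the first base of the RefSeq transcript in capitals. The second lies directly after it, at chr5:173328379-173328408, with the summit bases of the lactate list (first capital) and the vehicle list (next capital) marked.
STC2 start: gcaccatccctgccattgccgggcActcgc
STC2 summits: ggcgctgctaAcggcctggtCacatgctct
The G and C content was 70.0% in the first stretch and 63.3% in the second. The letters CNGGG, a form described for m5C sites of NSUN2, were searched on both strands of the 206 bases that run from 156 before the start, as far as the vehicle peak reaches, to 50 after it. They occurred 5 times on the strand of the gene and 3 times on the other, among them 1 match on each strand of the start stretch printed above. Such a window held them in 76.1% of 35116 RefSeq promoters on the strand of the gene and in 74.97% on the other, and overlapping matches were counted. In the 50 bases after the start alone there were 0 matches on either strand, where 34.0% and 30.9% of promoters had one. A match is a description of the letters and not a site.

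**Figure D3:**
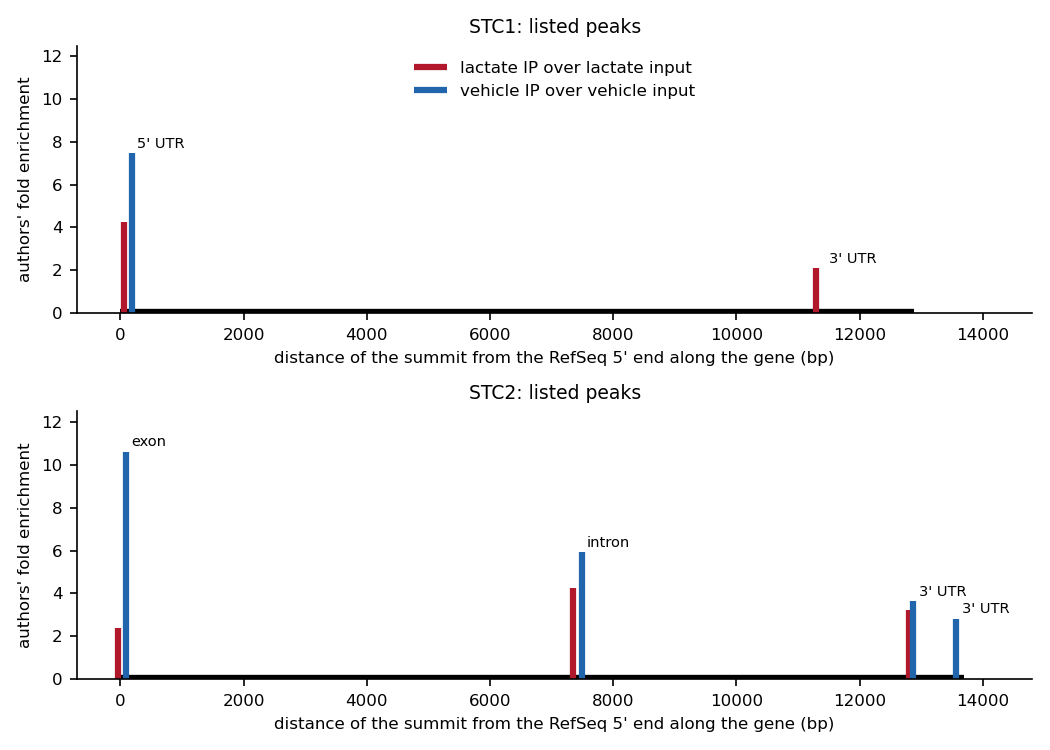
Peaks listed by the authors along STC1 and STC2, drawn by the distance of each summit from the RefSeq 5′ end (horizontal, bp) and the authors' fold enrichment (vertical), with lactate and vehicle peaks side by side and the gene span as a black bar. The 5′ peaks of both genes stand in both lists, the STC1 3′ UTR peak (2.11) in the lactate list alone and the outermost STC2 3′ UTR peak (2.82) in the vehicle list alone.

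The authors' deposited table that compares the lactate IP with the vehicle IP held 6 peaks at these positions. It gives no symbols, so they were matched by overlap with the listed peaks. For the STC1 3′ UTR peak the authors' deposited table gave a normalized density of 25.2 in the lactate IP and 9.38 in the vehicle IP, or a log2 ratio M of 1.43. In the STC1 5′ UTR its densities were 8.90 in the lactate IP and 7.64 in the vehicle IP, with M at 0.22. By these rescaled densities STC1 had a wider gap between the libraries at the 3′ UTR than at the 5′ UTR. At the STC2 3′ UTR the authors' deposited table gave 197.3 in the lactate IP against 218 in the vehicle IP at the inner peak (M −0.15), and 197.2 against 217 at the outer one (M −0.14). The STC2 intron peak had 47.8 in the lactate IP and 48.0 in the vehicle IP (M −0.01), and the 5′ exon peak 8.52 and 12.8 (M −0.58). Across the authors' deposited table, 13.9% of 116484 peaks were 2-fold or more higher by M and 38.6% 2-fold or more lower. The STC1 3′ UTR peak was the single stanniocalcin peak past that line, and it was in the authors' deposited table because it had been called in the lactate list alone, where a high M is favoured. Among the 20965 peaks of that class in the authors' deposited table the median M was also 1.43, so its position there was an ordinary one. The outer STC2 3′ UTR peak, called in the vehicle list alone, had a higher M than 84.5% of the 69138 peaks of its class in the authors' deposited table, where the median was −1.40. The P column of this table never exceeds 0.25 and is not read here as an error rate.

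The densities had been rescaled by the authors along a line in the mean log2 density. With that line taken off they became whole multiples of 0.5, and the numbers given next are these multiples, which may be reads plus 1. The STC1 3′ UTR had 43 in the lactate IP and 22 in the vehicle IP, and the STC1 5′ UTR 16 and 17. The 3′ UTR peak was called in the lactate list alone, which favours a ratio above 0, and the intervals do not cover that choice. Per library total the 3′ UTR ratio was 0.81 (log2, 95% exact interval 0.04 to 1.62), and per nuclear reads it was 1.93 (1.16 to 2.74). For the 5′ UTR these were −0.24 (−1.33 to 0.83) and 0.88 (−0.20 to 1.95), so the intervals of the ends overlap, and on so few reads a difference between them was not detectable. STC2 had 270 in the lactate IP and 638 in the vehicle IP at its inner 3′ UTR peak, 74 and 124 in the intron, and 15 and 29 at the 5′ exon. At the inner 3′ UTR peak the ratio was −1.40 per library total (−1.61 to −1.19) and −0.27 per nuclear reads (−0.49 to −0.07), against the deposited M of −0.15. Set against library totals, the level STC2 values of the authors' deposited table thus rest on its rescaling, a line that stood at −1.09 (log2) for this peak. Per nuclear reads the STC2 intron and 5′ exon were near level without that line, at 0.22 (−0.21 to 0.65) and 0.01 (−0.99 to 0.96). The outer STC2 3′ UTR peak, with its summit 696 bp away, had 270 and 634. Summits 600 to 1000 bp apart across the table differed by a median of 0.18 (log2, 595 pairs with over 100 at the lactate IP), and summits 2000 to 3000 bp apart by 2.36 (270 pairs). Whether neighbouring peaks share reads was not tested, since no source used here gives the width over which reads were taken, and the STC2 3′ UTR peaks are not counted as separate measurements.

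**Figure D4:**
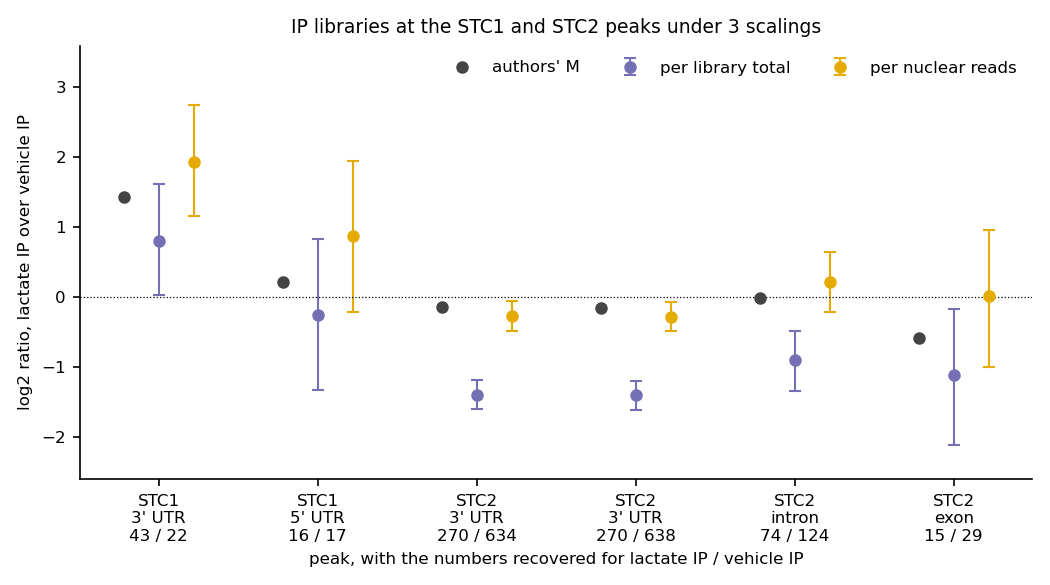
Log2 ratio of the lactate IP over the vehicle IP at the 6 stanniocalcin peaks, as the authors' M (dark points), per library total (purple) and per nuclear reads (yellow), with 95% exact intervals that cover counting error only; the numbers recovered for the lactate IP and the vehicle IP stand under each peak. The STC1 3′ UTR is above 0 under each scaling (0.81 to 1.93), while the STC2 3′ UTR runs between −1.40 and −0.14. The STC1 3′ UTR peak was called in the lactate list alone, which favours a ratio above 0.

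The proteins that stanniocalcins act on were read from a list of 15 genes of the pappalysin and IGF axis, of which 13 were in the table. PAPPA, which encodes the proteinase PAPP-A, had 0 to 5 reads in each library, and the ligand IGF1 had 0 or 1. IGFBP4, the binding protein cut by PAPP-A, was abundant, with FPKM 88.2 in the lactate IP, 31.1 in the lactate input, 216 in the vehicle IP and 51.7 in the vehicle input. In the inputs 0 of the 5 members with FPKM of at least 1 passed 2-fold in either direction, against 8.22% of all genes. IGFBP6 stood at 0.45, IGF2R at 0.23, IRS1 at −0.48 and IGFBP4 at −0.71. The list median was −0.16 against −0.43 over all genes. In the lactate IP over the vehicle IP 1 of 9 was lower, IGFBP4 at −1.28, against 27.7% of all genes, 0 were higher, against 1.64%, and the rest ran from IRS2, an adaptor of insulin and IGF receptors, at −0.78 to IGFBP3 at −0.41, with a median of −0.61 against −0.74. IGF2R, the receptor that clears IGF2, was far lower in the IP than in the input, at −3.51 in lactate cells and −2.57 in vehicle cells.

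Genes that share known regulators with the stanniocalcins were read from lists of HIF and of ATF4 targets. Of 20 targets of the hypoxia factor HIF, 8 were tested in the inputs with 0 past 2-fold, against 1.76% of all genes higher and 6.46% lower. LOXL2 stood at 0.11, BNIP3 at 0.01, ADM at −0.54 and ANGPTL4 at −0.85. The list median was −0.44 against −0.43 over all genes. In the lactate IP over the vehicle IP 1 of 7 was lower (ADM −1.19, BNIP3L −0.98) and 0 higher (SLC2A1 −0.36, BNIP3 −0.73), against 27.7% and 1.64% of all genes, with a median of −0.96 against −0.74. Members under the minimum of FPKM 1 were not tested. Of 16 targets of ATF4 and the unfolded protein response, 13 were tested in the inputs. There 1 was 2-fold lower, DDIT3 at −1.17, against 6.46% of all genes, and 0 were higher, against 1.76%. TRIB3, SESN2 and DDIT4 stood at −0.99, −0.15 and −0.40, with a list median of −0.73 against −0.43 over all genes. In the lactate IP over the vehicle IP 6 of these 13 were lower (TRIB3 −1.501, ATF4 −1.33) and 0 higher (DDIT4 −0.49, CHAC1 −0.50), against the same 27.7% and 1.64% of all genes, with a median of −0.99 against −0.74. Over all 6 lists, 64 members with FPKM of at least 1 in either IP were tested in that comparison and 0 were at or above STC1. Among all 6701 protein-coding genes tested 25 were, itself included, so 0 of 64 is near that share and is no result about the lists. The highest list member was CCN1, a secreted matrix protein, at 0.05.

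By the distance between log2(FPKM + 1) profiles over the 4 libraries, each centred on its own mean, the 5 of 7400 protein-coding genes most like STC2 were SPPL2A, ZNF121, FASTKD5, LARP7 and PBRM1, at distances of 0.03 to 0.07. Those most like STC1 were TMEM158, PABPC1L, MRPL49, LNPK and FBXL12, at 0.06 to 0.23. TMEM158 had FPKM 2.02 in the lactate IP, 1.67 in the lactate input, 1.41 in the vehicle IP and 1.87 in the vehicle input, the same order as STC1. The stanniocalcins lay 1.07 apart, against a median distance over all candidates of 1.15 from STC1 and 0.93 from STC2.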

How the data were processed

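Per the submitters' processing notes, peaks and reads passed through MACS2 2.2.7.1, HISAT2 2.1.0 and fastp 0.20.1, with HOMER 4.11.1, DiffBind and bedtools 2.29.2 also named, on GRCh38. What counted reads per gene, with which strand setting and annotation, was not given in the sources used here. For each gene the authors deposited FPKM. Per the file headers, the deposited peak lists give a fold enrichment (ratio) with −log10 of its p-value, and a q-value with its −log10. The deposited comparison of the IP libraries gives a normalized density (signal), the log2 ratio M and a P column.

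Whole reads were recovered from the FPKM values (99.983% of 72387 values above 0 whole within 1e-05) as the smallest whole numbers that fit a whole gene length, 4134 bp for STC1 and 5062 bp for STC2, so a factor common to a gene's libraries would be missed. The line of the peak comparison was found at 113273 peaks with numbers under 200, of which 100% came out whole within 0.02. Both steps were tested on simulated data.

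Ratios are log2(FPKM + 1) over genes with FPKM of at least 1 in a compared library, which understates changes of low genes, and 2-fold is counted as called. Intervals are 95% exact (Clopper-Pearson) on reads. For a difference of enrichments they are normal. The kit adds no molecular identifiers, so they cover counting error only. Where 0 reads were found, up to 3 are allowed, which is 1.97e-05% of the lactate IP. The members, the 6 lists of 97 symbols and the rule for named genes (the members, CDCP1, NSUN2, the 2 highest and 2 lowest of each list, and the nearest profiles) were chosen with earlier results of these data known. Python 3.11.15, numpy 2.4.6, pandas 2.3.3, scipy 1.17.1 and matplotlib 3.10.9 were used.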

Additional observations from a re-analysis of the deposited data

Results flagged for a closer look

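The enrichment of the IP over its input lay on opposite sides of 0 in lactate and vehicle cells for both stanniocalcins, in opposite orders. For STC1 the log2 ratio of FPKM + 1 was 0.25 in lactate cells and −0.29 in vehicle cells. For STC2 it was −0.51 in lactate cells and 0.05 in vehicle cells. With 1 library per group, neither difference was tested. Of 9445 genes, 2.64% had the signs of STC1 and 13.6% those of STC2. With equal nuclear totals, which are set by summed FPKM, STC1 stood at 0.85 in lactate cells and −0.08 in vehicle cells. STC2 stood at 0.28 and 0.39. On the scale of nuclear reads used for the levels, STC2 was nearer to level between IP and input. There it had 360 and 352 in lactate cells, and 359 and 335 in vehicle cells. STC1 had 46.4 and 22.7 in lactate cells, and 12.8 and 18.1 in vehicle cells. The opposite signs thus remained for STC1 and not for STC2 on either nuclear scale. Without the added constant the STC1 value in vehicle cells was −0.18 with equal nuclear totals, and its interval (−0.69 to 0.32) reaches past 0.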

How the results depend on the processing

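No paired analysis was possible because each group held 1 library, and no library could be left out for the same reason. Of 84 alternative values for the members, 64 moved by no more than 0.5 times the width of the main value's counting interval or, for counts, by no more than 1.5 times. The largest dependence was on scaling, and for STC2 the call in the lactate IP over the vehicle IP ended and its sign turned at 0.037 with equal nuclear totals, against −1.04 as deposited. It was −0.077 with median ratios, −0.30 relative to the median gene and −0.83 with a pseudocount of 5. With median ratios, equal nuclear totals and relative to the median gene, STC2 stood at 0.022, 0.16 and −0.050 in the inputs, at −0.53, 0.39 and −0.39 in the vehicle IP over its input, and at −0.10, −0.12 and −0.21 for the difference of enrichments. Equal nuclear totals gave 0.28 for STC2 and 0.85 for STC1 in the lactate IP over its input, and 1.15 for STC1 in the lactate IP over the vehicle IP, where it was 1.14 relative to the median gene. At q under 0.05 the STC1 peaks of the lactate list numbered 1 and not 2. The median M of the STC2 peaks was −0.14 as deposited and 0.35 less the median of all peaks. Before the authors' rescaling the median log2 ratio was −1.25 per library total and −0.13 per nuclear reads. Both of these settings were chosen after seeing the data, as was the one without a pseudocount. Genes past 2-fold in the inputs numbered 556 as deposited (21.4% higher) and 276 with equal nuclear totals (65.2% higher). In the lactate IP over the vehicle IP they numbered 2454 (5.58% higher), 488 with median ratios (55.7% higher), 887 with equal nuclear totals (63.4% higher) and 524 relative to the median gene (58.4% higher). Pseudocounts of 0.1 and 5 gave 1305 and 76 genes in the inputs, 4756 and 507 between the IP libraries, 4382 and 703 in the lactate IP over its input (2818 as deposited) and 2698 and 117 for the difference (1190). A pseudocount of 5 gave 1125 in the vehicle IP over its input (3901). A minimum FPKM of 5 gave 238, 1485, 1348, 433 and 2093 genes in the same 5 comparisons. Relative to the median gene the inputs gave 273 and the difference 793, equal nuclear totals gave 4446 in the lactate IP over its input, and protein-coding genes alone numbered 173 in the inputs and 398 for the difference. The higher share was 40.6% in the lactate IP over its input (76.8% with equal nuclear totals), 64.3% in the vehicle IP over its input (33.3% with median ratios, 76.6% with equal nuclear totals) and 24.1% for the difference (53.3% and 56.9%). STC1 rests on 53 to 100 reads per library, which limits every statement on it.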

Other observations

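Genes of calcium and phosphate handling were read from a list of 14, of which 13 were in the table. In the lactate IP over its input 3 of 8 tested members were at least 2-fold higher and 1 lower, against 16% and 23.3% of all genes. In the vehicle IP over its input 5 of 10 were higher and 1 lower, against 27.6% and 15.3% of all genes. ORAI2, a subunit of store-operated calcium channels, stood at 1.74 in lactate cells and 1.59 in vehicle cells. ATP2B1, a calcium pump of the plasma membrane, stood at 1.03 and 1.78, and UCP2, a mitochondrial carrier, at −1.37 and −1.35. In the lactate IP over the vehicle IP 3 of 10 members were lower (ATP2A2 −1.16, ATP2B1 −1.13) and 0 higher, a share near the 27.7% of all genes that were lower and the 1.64% that were higher.

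A list of 20 comparator genes was drawn up as secreted glycoproteins, though not all its members are such, CD59 being anchored in the membrane. Of these 20, 13 were tested in the lactate IP over the vehicle IP. There 4 were lower, led by TGFBI at −1.81 and AREG at −1.61, and 0 higher, again near the shares over all genes of 27.7% and 1.64%. Of 12 genes of N-glycosylation and folding, 5 were lower (RPN2 −1.40, STT3A −1.26) and 0 higher, against the same 27.7% and 1.64% of all genes. The list median was −0.98 against −0.74 over all genes, the highest being FAM20C, a kinase of secreted proteins, at −0.40. For comparison STC2 stood at −1.04 and STC1 at 0.40.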
